A study of Homo sapiens with 6 samples.

Results

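The S100 proteins examined here are encoded by 10 genes that epithelial cells are known to express: S100A2, S100A4, S100A6, S100A7, S100A8, S100A9, S100A11, S100A14, S100A16 and S100P. They were chosen by symbol, with earlier results of these data known. Every probe set of the array that the platform annotation pairs with 1 of these symbols alone was taken, which gave 12 of the 54613 probe sets tested, with 2 each for S100A6 and S100A8 and 1 for each other gene. All 12 are described, and no filter on low values was applied. The cells were SUM149, a cell line of human inflammatory breast cancer, transiently transfected with a pool of siRNAs at 200 nmol/L. The siControl group (3 arrays) received a non-targeting pool of the siGENOME line, and the siTIG1 group (3 arrays) received an ON-TARGET Plus pool against TIG1 (tazarotene-induced gene 1, current symbol RARRES1). Target and siRNA product line therefore changed together, and their effects cannot be told apart. Both groups were grown in Ham's F-12 medium with serum, insulin and hydrocortisone, and both were transfected with oligofectamine. Whether the replicates were cultured separately is not stated, and the spread behind each p-value is that of these samples alone and could be technical.

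S100 proteins are small calcium-binding proteins with EF-hand motifs that mostly act as dimers. Calcium binding opens a surface through which they hold partner proteins such as annexins, and some are also secreted and bind receptors such as RAGE (AGER) and TLR4. Most of their genes lie side by side on chromosome 1, around the genes of the epidermal differentiation complex, and several are known to change in stratified epithelium and in carcinoma.

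Signals are log2 values, as deposited, so a difference of 1 is a doubling. Differences are siTIG1 minus siControl with the standard error (SE) of the limma fit, and p-values were adjusted over all 54613 probe sets, with 0.05 as the threshold. The siControl replicate 3 array was unlike its group. It correlated with the other controls at 0.985 across probe sets, while those correlated with each other at 0.998 and with the siTIG1 arrays at 0.992 to 0.993, so each S100 result is given with and without it. TIG1 itself had 3 probe sets, with differences of -1.28, -1.24 and -0.83, none of which passed (limma adjusted p = 0.20, 0.23 and 0.27). Without siControl replicate 3, whose TIG1 signals were 1.11 to 1.66 above the other controls, they were -0.75, -0.68 and -0.46, and the first and second passed (limma adjusted p = 0.024, 0.043 and 0.16). On the last of them the array labelled siTIG1 replicate 1 had a signal of 12.69, against 12.65 and 12.61 for siControl replicates 1 and 2, so the knockdown is not shown on that array by this probe set. The signal of the 3' control probe set for ACTB minus that of the 5' one, a measure that grows as RNA degrades, was 2.85 ± 0.31 in siControl and 2.25 ± 0.10 in siTIG1 (SD, n = 3 each). For GAPDH it was 0.50 ± 0.06 and 0.46 ± 0.01. The siControl replicate 3 array had the highest value for both genes, with 3.21 against 2.73 and 2.62 in the other controls for ACTB and 0.57 against 0.48 and 0.46 for GAPDH. The part of this measure in the results below was not tested.

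Because the members were chosen with earlier results known, the counts and medians here are set beside the background as a description and not as a test. Across all arrays 3 of the 12 S100 probe sets rose, those of S100A8, S100A9 and S100A11, against a background of 2.14% of all probe sets called higher. None fell, against 2.87% of all probe sets called lower, although 5 S100 probe sets with negative differences had an unadjusted limma p under 0.05. In either direction 8 of the 12 S100 probe sets had such a p, beside 10429 of all 54613. Without the siControl replicate 3 array S100A8, S100A9, S100A11 and S100P were called higher, against 7.87% of all probe sets, and 5 probe sets were called lower, against 11%. Those were S100A2, S100A4, S100A14 and both probe sets of S100A6. With all arrays, 3 S100 probe sets had every siTIG1 array above every control, which held for 14.8% of all probe sets. A further 5 had every siTIG1 array below every control, which held for 13%. The median size of the S100 differences was 0.49, beside 0.09 over all probe sets, and their median with sign was -0.17, beside 0.01. This background was not matched to the S100 probe sets for signal level, and these medians include siControl replicate 3. The scatter of difference against p shows how the S100 probe sets spread to both sides.

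**Figure D1:**
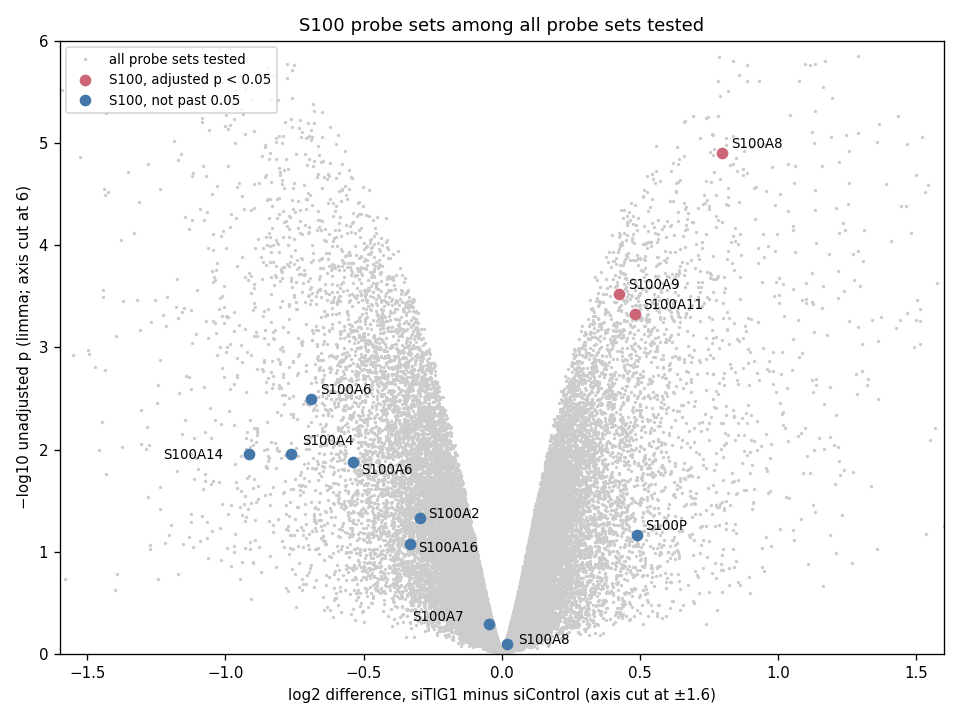
Each grey point is 1 of the 54613 probe sets, with its log2 difference (siTIG1 minus siControl, horizontal axis, cut at ±1.6) against −log10 of limma's unadjusted p (vertical axis, cut at 6), and the 12 S100 probe sets are named. The 3 red points (S100A8, S100A9 and S100A11) passed the adjusted threshold of 0.05, and the blue points, which did not, include S100A14 at -0.91 and S100P at 0.49.

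The promoters of the 3 genes that rose are shown because these genes moved in the same direction. The windows run from 250 bases before to 50 after the transcription start in RefSeq, read 5′ to 3′ on the gene's strand in build GRCh38.p14. That of S100A8 is chr1:153391024-153391323 on the minus strand, 1 of 3 starts listed and chosen as the first listed of those with the most motif matches. That of S100A9 is chr1:153357604-153357903 on the plus strand, and that of S100A11 is chr1:152036955-152037254 on the minus strand. Capitals mark the motif matches, which were searched on both strands. The TATA box was searched as TATAAA and the GC box as GGGCGG.
S100A8: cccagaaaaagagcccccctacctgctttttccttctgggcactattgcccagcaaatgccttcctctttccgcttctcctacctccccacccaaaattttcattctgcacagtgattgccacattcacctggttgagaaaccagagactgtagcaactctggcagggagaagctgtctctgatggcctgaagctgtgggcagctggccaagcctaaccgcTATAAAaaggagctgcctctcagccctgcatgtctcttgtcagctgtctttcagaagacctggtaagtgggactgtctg
S100A9: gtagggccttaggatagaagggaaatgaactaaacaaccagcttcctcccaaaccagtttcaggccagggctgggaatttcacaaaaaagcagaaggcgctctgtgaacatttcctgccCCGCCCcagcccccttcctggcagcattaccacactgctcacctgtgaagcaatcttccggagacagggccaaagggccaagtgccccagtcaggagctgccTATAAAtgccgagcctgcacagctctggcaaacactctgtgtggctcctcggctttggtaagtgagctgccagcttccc
S100A11: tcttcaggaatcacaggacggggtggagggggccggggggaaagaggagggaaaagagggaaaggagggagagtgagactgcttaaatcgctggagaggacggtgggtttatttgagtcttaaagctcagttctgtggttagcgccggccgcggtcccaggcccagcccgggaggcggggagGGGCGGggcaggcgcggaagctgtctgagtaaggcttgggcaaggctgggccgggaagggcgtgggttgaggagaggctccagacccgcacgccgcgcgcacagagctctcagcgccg

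The windows of S100A8 and S100A9 both held TATAAA with its first base 29 bases before the start, and that of S100A11 held none. A gene was counted when any of its windows matched, while the shares over all windows count single windows, so they are not directly comparable. S100A8 had 3 windows, and S100A2 and S100A16 had 2 each. A TATA box match occurred in 5 of the 10 genes (S100A4, S100A7, S100A8, S100A9 and S100P), of which 2 rose, and in 11.5% of all 35116 promoter windows of this length. A GC box match occurred in S100A6, S100A9, S100A11 and S100A16, and in 45% of all windows. The letters TGANTCA of the AP-1 motif, searched on both strands, occurred for S100A2 alone among the 10 genes and in 7.71% of all windows. The GC content of the S100A8 windows was 51.3% to 54.7%, that of S100A9 was 55.7% and that of S100A11 was 65.3%, beside a median of 58.7% over all windows. A match is a description of letters, and no binding was measured in these samples.

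S100A8 and S100A9 encode the subunits of calprotectin, a heterodimer that binds calcium and metal ions, is abundant in neutrophils and monocytes, and is induced in stressed or hyperproliferative epithelium. S100A8 (probe set 202917_s_at) read 6.81, 6.80 and 6.67 on siControl replicates 1 to 3 and 7.65, 7.52 and 7.50 on siTIG1 replicates 1 to 3. The groups did not overlap and lay 0.69 apart at their nearest arrays. The rise was 0.80 ± 0.07 (SE), or 1.74-fold (limma adjusted p = 0.0041), and it was 0.75 without siControl replicate 3 (limma adjusted p = 9.4e-05). The call was kept with any single array left out, with a limma adjusted p of at most 0.038. The control values lie only just above the lower quartiles of their arrays (6.63 to 6.64) and are not shown to be above background, so this fold too may be too small. The array labelled siTIG1 replicate 1 had the highest S100A8 signal of the group.

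The second S100A8 probe set (214370_at) did not show this rise. It read 5.38, 5.31 and 5.52 on the control arrays and 5.43, 5.39 and 5.44 on the siTIG1 arrays. The groups overlapped, and the difference was 0.02 ± 0.07 (SE, 95% interval -0.15 to 0.18, limma adjusted p = 0.92). It was 0.08 without siControl replicate 3 (limma adjusted p = 0.39). Every value of this probe set was below the lower quartile of its array (6.63 to 6.67), where the table gives no detection call. Whether the probe sets bind different transcripts was not tested.

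S100A9 (203535_at) read 6.26, 6.14 and 6.30 on the control arrays and 6.71, 6.64 and 6.63 on the siTIG1 arrays. All siTIG1 arrays were above all controls, by 0.33 at the nearest arrays, and the rise was 0.43 ± 0.06 (SE), or 1.34-fold (limma adjusted p = 0.017). The control values and those of siTIG1 replicates 2 and 3 lie below the lower quartiles of their arrays (6.63 to 6.67). They are not shown to be above background, so the fold may be too small. Without siControl replicate 3 the rise was 0.46 (limma adjusted p = 0.00089), whereas it no longer passed when any other array was removed, with a limma adjusted p of 0.058 and 0.053 for siControl replicates 1 and 2 and of 0.078, 0.091 and 0.087 for siTIG1 replicates 1, 2 and 3.

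S100A7, or psoriasin, an antimicrobial protein of inflamed skin and of some breast carcinomas, had similar values in both groups. It read 6.38, 6.21 and 6.32 on the control arrays and 6.31, 6.28 and 6.19 on the siTIG1 arrays. The groups overlapped, with a difference of -0.05 ± 0.07 (SE, 95% interval -0.20 to 0.11, limma adjusted p = 0.77). It was -0.04 without siControl replicate 3 (limma adjusted p = 0.76). All signals of S100A7 were below the lower quartile of their arrays, so a change in S100A7 may not be measurable with this probe set.

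Because S100A8 and S100A9 also mark myeloid cells, leukocyte markers were set beside them. None of 10 measured markers, 1 probe set each, was called with all arrays, where 2.86% of all genes were called higher and 3.8% lower, and their summed log2 signal ranged from 74.3 to 76.4 in siControl and from 75.1 to 75.7 in siTIG1. PTPRC, the pan-leukocyte phosphatase CD45, differed by -0.10 and the granulocyte receptor CSF3R by 0.06, and no marker is at 0 on this scale. CD14, a monocyte co-receptor that epithelial cells can also express, read 7.67, 7.62 and 8.95 on the control arrays and 8.48, 8.48 and 8.37 on the siTIG1 arrays. It was called higher without siControl replicate 3 (0.80, limma adjusted p = 5.6e-05) and was the only marker of the list called there. Its part in the S100A8 and S100A9 results was not tested. The samples were of the cell line SUM149, and no leukocytes are named among them. A changed share of cells in some state and a changed amount of RNA per cell cannot be told apart in these bulk samples. Of 9 measured epithelial markers KRT19, a simple-epithelium keratin, rose by 1.00 ± 0.15 (SE, limma adjusted p = 0.018), none fell and 8 did not pass. The other KRT19 probe set differed by 0.12 and missed the threshold (limma adjusted p = 0.44). In the fit without siControl replicate 3, where 10.1% of all genes were called higher and 13% lower, KRT19 (0.84), the basal keratin KRT5 (0.29) and E-cadherin (CDH1, 0.35) were called higher and the basal keratin KRT14 (-0.32) lower. The part of these markers in the S100 results was not tested. EPCAM, an epithelial surface marker, was near 14 on all arrays (14.25 to 14.46) and differed by -0.05.

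**Figure D2:**
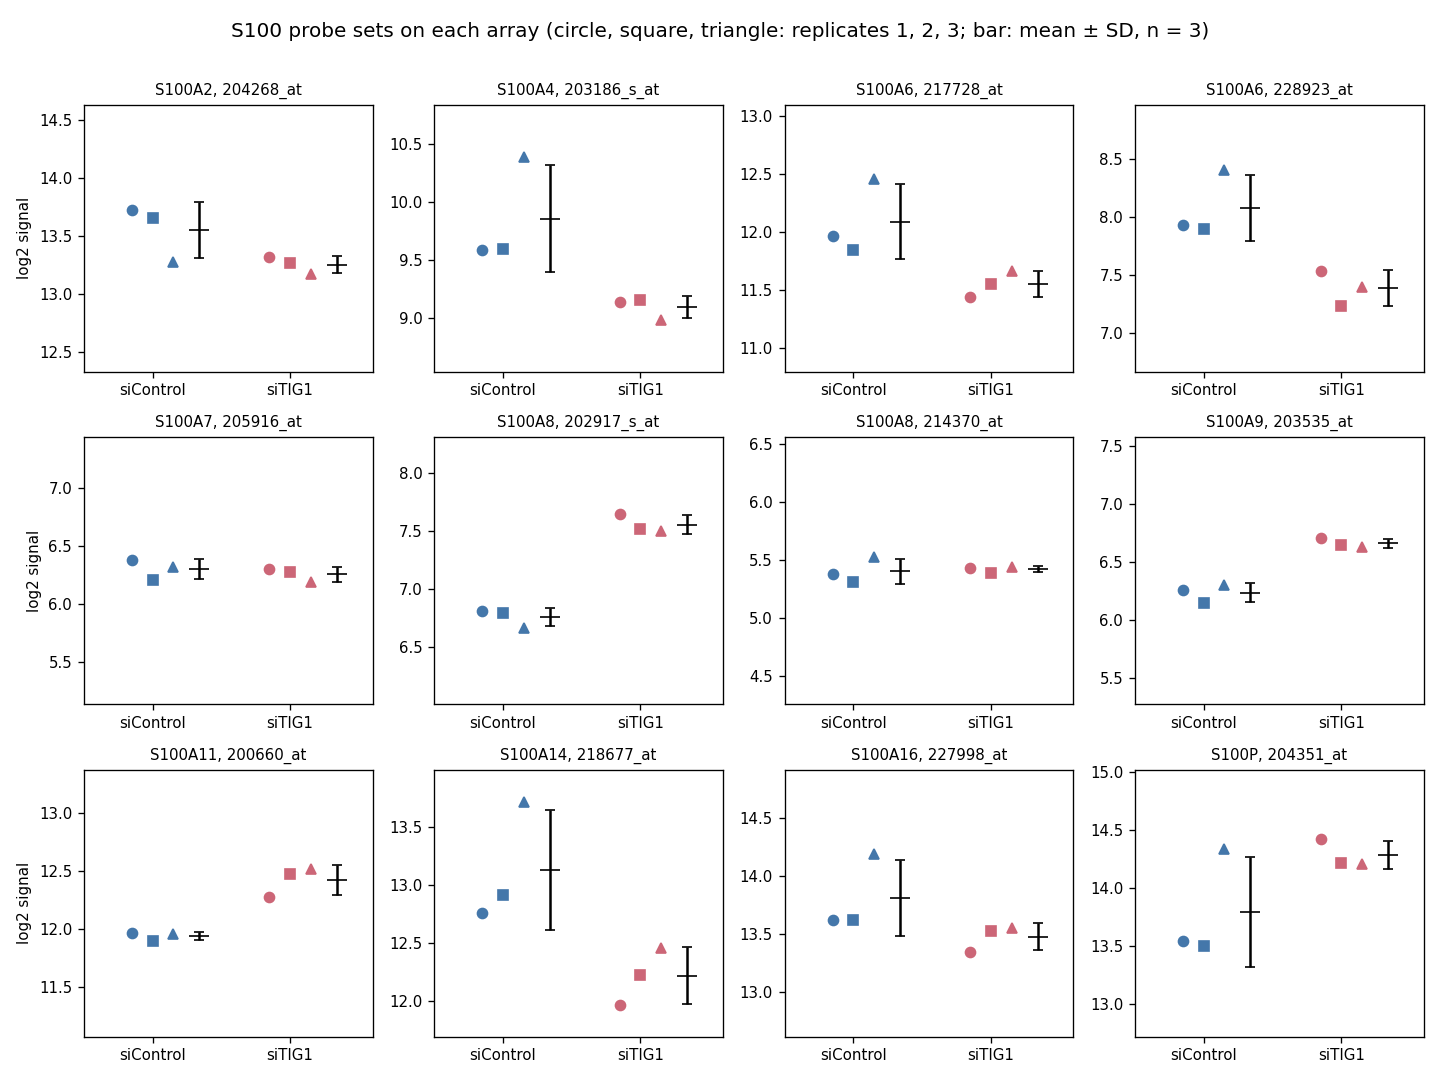
Log2 signal of each of the 12 S100 probe sets on the 6 arrays, with siControl in blue and siTIG1 in red, symbols for replicates 1 to 3, and bars for the mean ± SD of 3 arrays; all panels span the same number of log2 units. S100A8 (202917_s_at), S100A9 and S100A11 have all siTIG1 arrays above all controls, and the triangle of siControl replicate 3 stands above the other controls for S100A4, S100A6, S100A14, S100A16 and S100P and below them for S100A2.

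S100A11, or calgizzarin, binds annexin A1 and takes part in growth control of keratinocytes and in membrane repair. It read 11.96, 11.90 and 11.95 on the control arrays and 12.27, 12.47 and 12.51 on the siTIG1 arrays. The controls were tightly grouped, all siTIG1 arrays were above them, and siTIG1 replicate 1 was the lowest of its group. The rise was 0.48 ± 0.08 (SE), or 1.40-fold (limma adjusted p = 0.021), and 0.49 without siControl replicate 3 (limma adjusted p = 0.0025). It still passed with siTIG1 replicate 1 removed, but not with any of the remaining arrays removed, where the limma adjusted p was 0.067 and 0.079 for siControl replicates 1 and 2 and 0.11 and 0.10 for siTIG1 replicates 2 and 3.

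S100P, a secreted ligand of RAGE that is raised in several carcinomas, lies apart from the others on chromosome 4. It read 13.54, 13.49 and 14.34 on the control arrays and 14.42, 14.22 and 14.21 on the siTIG1 arrays. The control array of replicate 3 lay 0.82 above the other controls, inside the siTIG1 range, so the groups overlapped. The difference was 0.49 ± 0.22 (SE) and missed the threshold (limma adjusted p = 0.30). Without that array it was 0.76 ± 0.07 (SE, limma adjusted p = 0.00020), which makes S100P a case where a single control array decides the call.

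S100A4, or metastasin, binds non-muscle myosin and is linked to cell motility and metastasis, and S100A6, or calcyclin, is linked to proliferation. S100A4 (203186_s_at) read 9.59, 9.59 and 10.39 on the control arrays and 9.14, 9.16 and 8.98 on the siTIG1 arrays. Every siTIG1 array was below every control, and the highest value was again on siControl replicate 3. The difference was -0.76 ± 0.22 (SE, limma adjusted p = 0.12) and did not pass. Without siControl replicate 3 it was smaller in size and passed, at -0.50 ± 0.07 (SE, limma adjusted p = 0.0010).

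S100A6 had 2 probe sets with the same sign. The first (217728_at) read 11.97, 11.84 and 12.45 on the control arrays and 11.43, 11.55 and 11.66 on the siTIG1 arrays. The second (228923_at) read 7.93, 7.90 and 8.41 on the control arrays and 7.54, 7.23 and 7.40 on the siTIG1 arrays. On both, every siTIG1 array was below every control, and siControl replicate 3 was the highest. The differences were -0.54 ± 0.16 (SE, limma adjusted p = 0.13) and -0.69 ± 0.15 (SE, limma adjusted p = 0.058). Without siControl replicate 3 they were -0.36 and -0.53, and both passed (limma adjusted p = 0.011 and 0.0027).

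S100A14 is an epithelial S100 protein linked to cell adhesion and invasion, and S100A16 is a widely expressed relative that can pair with it. S100A14 read 12.76, 12.91 and 13.72 on the control arrays and 11.97, 12.22 and 12.46 on the siTIG1 arrays. All siTIG1 arrays were below all controls, and both groups were wide (SD 0.52 and 0.25, n = 3 each). Its difference, -0.91 ± 0.26 (SE), was the largest in size of the 12 probe sets but missed the threshold (limma adjusted p = 0.12). With siControl replicate 3 removed it was -0.62 ± 0.12 (SE, limma adjusted p = 0.0078).

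S100A16 read 13.62, 13.62 and 14.19 on the control arrays and 13.35, 13.53 and 13.56 on the siTIG1 arrays. The groups did not overlap but lay only 0.06 apart. The difference was -0.33 ± 0.16 (SE, limma adjusted p = 0.34), and -0.14 without siControl replicate 3 (limma adjusted p = 0.22). It passed in neither fit.

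S100A2, a nuclear S100 protein of basal epithelial cells that binds p53, differed from these in the third control. It read 13.72, 13.65 and 13.28 on the control arrays and 13.32, 13.27 and 13.17 on the siTIG1 arrays. Here siControl replicate 3 was 0.41 below the other controls and within the siTIG1 range, so the groups overlapped. The difference was -0.30 ± 0.12 (SE, limma adjusted p = 0.25), and -0.43 ± 0.06 (SE, limma adjusted p = 0.0015) without that array.

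**Figure D3:**
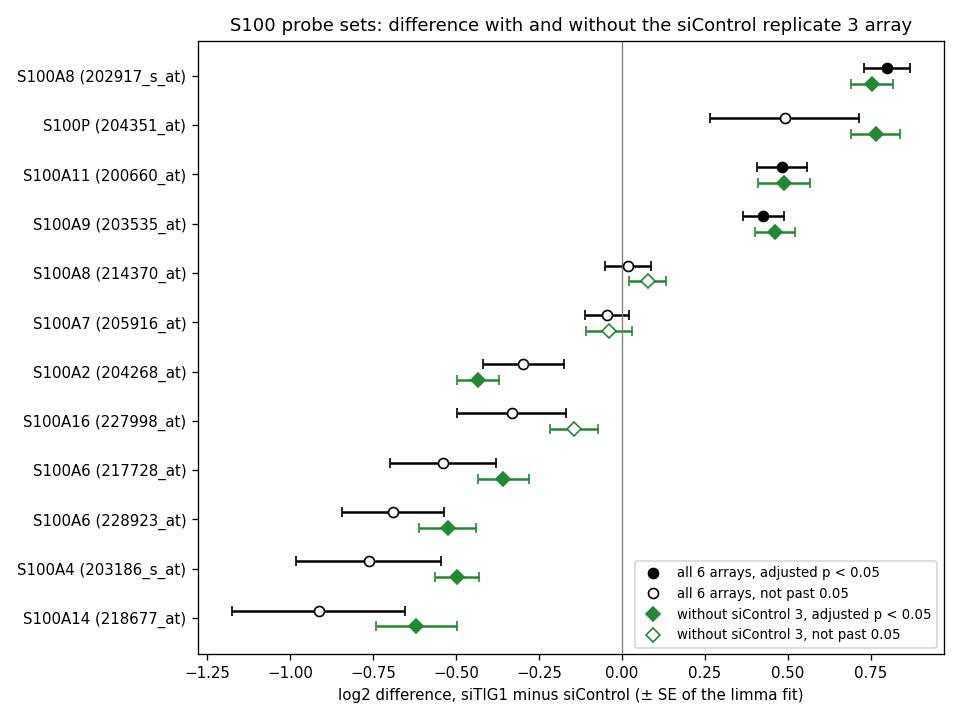
Log2 difference (siTIG1 minus siControl) with the SE of the limma fit for each S100 probe set, with all 6 arrays (circles) and without siControl replicate 3 (diamonds); filled symbols have an adjusted p under 0.05. S100A8, S100A9 and S100A11 were filled in both fits, while S100P moved from 0.49 to 0.76 and S100A14 from -0.91 to -0.62 and became filled.

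The siControl replicate 3 array lay more than 0.5 from the mean of the other controls on 5 of the 12 S100 probe sets, and on 11% of all probe sets. It was higher on all 5, by 0.80 for S100A4, 0.55 for S100A6 (217728_at), 0.88 for S100A14, 0.57 for S100A16 and 0.82 for S100P. For S100A8 (202917_s_at), S100A9 and S100A11 it lay -0.14, 0.10 and 0.02 from the other controls. The rises of these genes were thus of similar size with and without it. The larger negative differences shrank when it was left out.

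In their order on chromosome 1 in RefSeq, the S100 genes are described in 3 stretches, a division made after the values were seen. S100A10 and S100A11 lie first, and S100A11 rose. The 47 genes that follow, of which 24 were measured, include filaggrin, involucrin, loricrin and the SPRR and LCE families of the cornified envelope. None of them was called with all arrays, and 1, SPRR2B, was called higher without siControl replicate 3. Next come S100A9, S100A12, S100A8, S100A7A and S100A7, of which S100A9 and S100A8 rose and S100A7 had a small negative difference (-0.05). S100A12, another calgranulin, differed by 0.12 and did not pass (limma adjusted p = 0.25), nor did it without siControl replicate 3 (0.10, limma adjusted p = 0.24). The last stretch runs from S100A6 through S100A5, S100A4, S100A3, S100A2, S100A16, S100A14 and S100A13 to S100A1. Of its 9 genes 8 had negative differences, as did 8 under quantile normalization and under median centring, with a median of -0.30. Over all 19775 genes, 8930 had negative differences with all arrays. None of the 9 passed with all arrays, where 3.8% of all genes were called lower. S100A6, S100A4, S100A2 and S100A14 were called lower without siControl replicate 3, as were 13% of all genes. The genes of a stretch are not independent of each other, and no test of the arrangement was made.

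**Figure D4:**
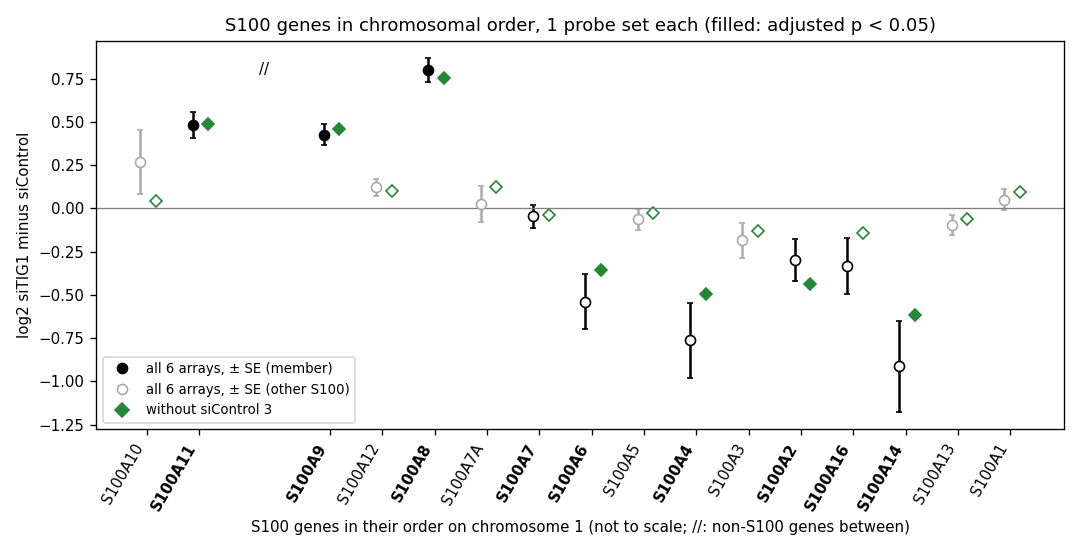
Log2 difference (siTIG1 minus siControl) of each S100 gene on chromosome 1, 1 probe set each, in chromosomal order (not to scale), with all arrays (circles, ± SE) and without siControl replicate 3 (diamonds). Members have black circles and bold names, filled symbols passed 0.05, and the genes from S100A6 to S100A14 lie below 0 while S100A11, S100A9 and S100A8 lie above.

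Related genes were represented by 1 probe set each, and over all 19775 genes represented in this way 2.86% were called higher and 3.8% lower. Of 11 other measured S100 genes and partners in name none rose, 1 fell and 10 did not pass, with a median difference of 0.02. The fall was that of S100PBP, which encodes the S100P-binding protein (-0.62 ± 0.11 SE, limma adjusted p = 0.034). Its values were 10.70, 10.75 and 11.06 on the control arrays and 10.07, 10.25 and 10.32 on the siTIG1 arrays. Its other probe set had the opposite sign (0.42 ± 0.14 SE, limma adjusted p = 0.18), so the direction for the gene is not settled. Without siControl replicate 3 the former was -0.51 and the latter 0.55, and both passed (limma adjusted p = 0.0019 and 0.0065). S100A10, the annexin A2 partner p11, differed by 0.27 and did not pass (limma adjusted p = 0.50). Its difference without siControl replicate 3 was 0.04 (limma adjusted p = 0.66). On siControl replicate 3 it read 12.89, and on all other arrays it lay between 13.55 and 13.62.

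Of 23 measured S100 receptors and binding partners 2 rose, none fell and 21 did not pass, with a median difference of 0.04. ANXA2 was counted by a dim probe set (1568126_at, siControl mean 4.82, difference 0.12), because its other probe sets end in x_at. Those had siControl means of 13.95 to 14.11. Each differed by 0.32 and did not pass (limma adjusted p = 0.31 each). Without siControl replicate 3 each differed by 0.14 and again did not pass. SUGT1, a co-chaperone that S100A6 binds, rose by 0.48 ± 0.08 (SE, limma adjusted p = 0.029). It read 12.09, 12.09 and 11.87 on the control arrays and 12.40, 12.57 and 12.52 on the siTIG1 arrays. Of its 5 probe sets 2 passed, both higher, and 2 of the others had negative differences, which passed without siControl replicate 3 (-0.86 and -0.37), where SUGT1's representative probe set rose by 0.40. NUCB1, the calcium-binding Golgi protein nucleobindin, rose by 0.25 ± 0.05 (SE, limma adjusted p = 0.047), and by 0.24 without siControl replicate 3 (limma adjusted p = 0.018). Its other probe set differed by 0.09 and 0.12 in these fits and passed in neither (limma adjusted p = 0.54 and 0.32). The receptors AGER and TLR4, named for their role, differed by 0.03 and 0.06 and did not pass (limma adjusted p = 0.92 and 0.73). Another TLR4 probe set (232068_s_at), at low signals of 4.96 to 5.48, differed by -0.20 (limma adjusted p = 0.52). Without siControl replicate 3 it differed by -0.36 and passed (limma adjusted p = 0.0043). No other probe set of AGER or TLR4 passed in either fit.

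Of 21 measured genes of the cornified envelope and fused S100 proteins none was called in either direction by limma. An unadjusted limma p under 0.05 was found for 1 of them, beside 4400 of all 19775 genes. The largest differences were those of the transglutaminase TGM1 (-0.29, limma adjusted p = 0.41) and cornifelin (CNFN, 0.25, limma adjusted p = 0.19). TGM1 read 0.59 higher on siControl replicate 3 than on the other controls. With that array left out TGM1 differed by -0.09 and CNFN by 0.23 (limma adjusted p = 0.34 and 0.12). Without siControl replicate 3, where 10.1% of all genes were called higher and 13% lower, cystatin A (CSTA, 0.24) and SPRR2B (0.18) were higher and the elastase inhibitor PI3 (-0.51) was lower. PI3 read 13.29, 13.32 and 12.03 on the control arrays and 12.70, 12.84 and 12.83 on the siTIG1 arrays, so siControl replicate 3 lay below the siTIG1 group and the other controls above it. In that fit 3 of the receptors and partners were called higher and 4 lower, and of the other S100 genes 1 was called lower. With any single other array left out, none of these 3 lists had a call, higher or lower. Those runs called from 327 to 1101 of all 54613 probe sets.

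**Figure D5:**
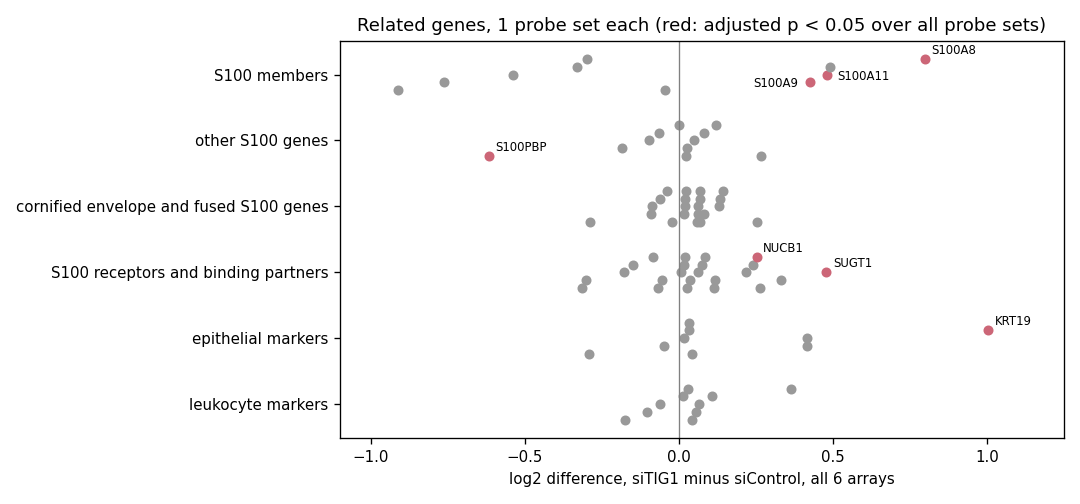
Log2 difference (siTIG1 minus siControl, all 6 arrays) of the 10 S100 members, of 3 lists of related genes and of 2 marker lists, 1 probe set per gene, spread vertically for legibility. Red points passed an adjusted p of 0.05 and are named: S100A8, S100A9 and S100A11 among the members, S100PBP, NUCB1, SUGT1 and the epithelial marker KRT19.

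The genes whose pattern over the 6 arrays lay nearest to that of S100A8 (202917_s_at) were found by the root mean square distance between log2 values centred on each gene's mean, over 19765 genes. They were RHOBTB3 (distance 0.02), DECR1 (0.03), BHLHE41 (0.06), TP53I3 (0.06) and KIAA1107 (0.07). Each of these rose, by 0.81, 0.83, 0.80, 0.75 and 0.79. A rise close to that of S100A8 follows from the search itself. This likeness is a description over 6 arrays in 2 groups.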

How the data were processed

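The authors deposited log2 signals of Affymetrix HG-U133 Plus arrays, with 1 number for each probe set on each array. The base of the log was taken as 2 from the range of the values (4.28 to 15.59). MAS5 and RMA are named in the submitters' processing notes without role, and their part in making the values is not known here. The medians of the arrays (7.87 to 7.90) were nearly equal, so the values, already normalized by the authors, were used as deposited; a change shared by most genes would be hidden, and no detection call is given.

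Groups came from the sample titles. Of 54675 probe sets, 62 controls were left out, and 41091 of the rest had 1 symbol, updated through the gene number with RefSeq (GRCh38.p14). All 54613 probe sets were fitted with limma 3.58.1 in R 4.3.3 (lmFit, eBayes, 2-sided, no block) with Benjamini-Hochberg adjustment over all of them. The code was tested on simulated data.

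Genes of the lists were represented by the probe set with the highest mean, x_at probe sets only where no other existed. The members and lists were chosen with earlier results of these data known. Named genes were all members, RARRES1 and up to 5 called genes of each list by p. The 2 with the largest differences where fewer than 2 were called, and the 5 nearest to S100A8, were also named. CSTA, SPRR2B, PI3, CD14, PTPRC, CSF3R, EPCAM, KRT5, KRT14, CDH1, AGER, TLR4, ANXA2 and S100A12 were added after their values were seen. List genes without a probe set of 1 symbol were not analysed here. The alternatives tried were median centring, quantile normalization, leaving out dim probe sets, 1 probe set per gene, trended robust eBayes, array weights, a replicate block and leaving out each array. The number of arrays limits the precision.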

Additional observations from a re-analysis of the deposited data

How the results depend on the processing

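With 3 arrays per group and no detection calls, low signals such as those of S100A7, S100A9 and both S100A8 probe sets have no stated floor. The count of S100 probe sets called higher was 3 in the fit of all arrays and ranged from 1 to 4 when single arrays were left out. The count called lower was 0 and ranged from 0 to 5, with 5 only without siControl replicate 3. The totals over all 54613 probe sets moved as well. They were 2737 called in either direction with all arrays, 327 without siTIG1 replicate 2 and 10324 without siControl replicate 3, the lowest and highest of these runs. With array weights 5 S100 probe sets were called lower, in a fit that called 8925 of all probe sets, 3876 of them higher. Whether equal replicate numbers pair the arrays is not stated. Deviations of same-numbered arrays from their group means correlated at -0.04, -0.01 and -0.01, which cannot exclude a pairing with 3 arrays per group. With the replicate block 1 S100 probe set, that of S100A8, was called higher and none lower, and no other S100 genes (0) and no receptors or partners (0) were called. The block fit called 478 of all probe sets. The second S100A8 probe set changed sign under quantile normalization (-0.00036) and ranged from -0.029 to 0.078 with single arrays left out. All other S100 probe sets kept their sign in every alternative run. The other S100 genes called lower ranged from 0 to 1 with single arrays left out. Cornified envelope genes ranged from 0 to 2 called higher and from 0 to 1 called lower. Receptors and partners ranged from 0 to 3 called higher and from 0 to 4 called lower. Under median centring and under trended robust eBayes 1 receptor or partner was called higher in each, and under quantile normalization 1 was called lower. With array weights 4 were called higher and 3 lower. The cause of these changes was not tested.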
